A study of Mus musculus with 22 samples.

Results

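Wnt target and feedback genes were followed through mouse duodenal organoids exposed to cold atmospheric plasma (CAP), an ionised gas whose reactive oxygen and nitrogen species dissolve in the culture medium. The group holds 10 genes of the 52636 in the deposited table, listed by name: Lgr5, Axin2, Ascl2, Sp5, Nkd1, Znrf3, Rnf43, Notum, Tnfrsf19 and Sox9. Earlier results of these data were known when they were chosen, and the study itself describes Lgr5 and Axin2 as lowered. All 10 were found in all 22 libraries. Organoids are epithelial structures grown in a matrix from crypt cells, and they hold stem cells together with their differentiated progeny. All lines came from wild type adult mice, which the study's methods place in the outbred CD1 strain, and each line came from 1 animal.

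In canonical Wnt signalling, Wnt ligands bind Frizzled receptors and LRP co-receptors, β-catenin is spared from degradation, and with TCF/LEF factors it switches on target genes. In the intestinal crypt this signal keeps stem cells in place, and R-spondin, which is supplied in organoid medium, strengthens it. Several targets feed back on the pathway, either to raise it (the R-spondin receptor Lgr5) or to dampen it (Axin2, Nkd1, Notum, Rnf43 and Znrf3).

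The untreated group held 4 libraries, from line 1 (CD1, passage 12), line 2 (WT2, passage 14), line 3 (1-20, passage 4) and line 4 (2-20, passage 4). Each of the 6 treated groups held 3 libraries, from lines 1, 2 and 4. In the direct groups CAP was applied to the wells at day 1 after replating, and the treated medium was replaced after 30 min or after 24 h. In the indirect groups naive organoids received medium from another culture that had been treated, and in the PAM groups they received plasma-activated medium made without organoids. Both were given for 24 h, from day 1 or from day 2, and are called indirect day 1, PAM day 1, indirect day 2 and PAM day 2 here. The labels mark the day 1 pair as 30 min and the day 2 pair as 24 h. The study's methods set the endpoint at day 3, so fresh medium followed exposure in the day 1 groups, and the day 2 groups were collected at the end of exposure. Exposure day and time since exposure cannot be told apart between them. For direct 30 min the study also writes of genes raised 30 min after treatment. Whether these libraries were collected then or at day 3 is not settled.

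The values were scaled by the authors to 20 M per library (CP20M). The study describes this unit as per kilobase, but the values are treated here as read counts not divided by transcript length. The levels per kb below rest on that reading. The reads behind each library were estimated at 19.7 to 28.65 M. All 7 epithelial markers, with the duodenal factors Pdx1 and Gata4, were present in every library, whereas the summed values of 5 fibroblast, 3 smooth muscle and 3 endothelial markers did not exceed 28. The 4 immune markers summed to 19 to 42 in untreated organoids and to 32 to 100 in the 24 h groups. Of these only Cd68 passed the filter on low values. The labels give the cell type as stem cells, yet markers of Paneth, goblet, enteroendocrine and enterocyte cells were present in all 7 groups. The line labels of some untreated libraries were uncertain. Deviations from the group means were compared over the genes that reached a minimum value in every library. That of untreated line 1 had a median correlation of 0.0593 with treated line 1 and 0.522 with treated line 2. That of untreated line 2 had a median of 0.0901 with its own line and 0.228 with line 1. Untreated line 4 followed its own line (median 0.537). Counts of calls without the untreated libraries of lines 1 and 2 are therefore given below.

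In untreated organoids the members spanned a wide range of levels. Divided by exon length, Axin2 stood at 852 ± 153 per kb (SD, n = 4) and Sox9 at 661 ± 115 per kb. Ascl2 (312 per kb), Rnf43 (289), Lgr5 (176), Sp5 (133) and Znrf3 (125) followed. Tnfrsf19 stood at 39.7 per kb, Nkd1 at 9.32 and Notum at 2.08. The untreated ranges of neighbours in this order overlapped, except between Sox9 and Ascl2, Znrf3 and Tnfrsf19, Tnfrsf19 and Nkd1, and Nkd1 and Notum.

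**Figure D1:**
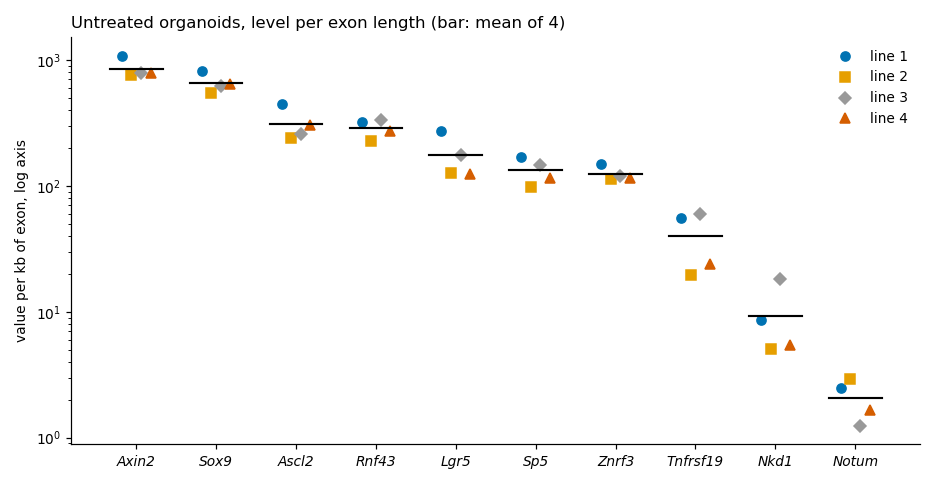
Level per kb of exon (log axis) of each of the 10 genes in the 4 untreated libraries, 1 symbol per line, with the mean as a bar. Axin2 (852) and Sox9 (661) lie above all other members, and Notum (2.08) lies below all of them.

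Promoter sequence was available for 6 of the 10 genes (8 promoters, RefSeq, GRCm38.p6). The 250 bases before each start were searched on both strands for the TCF/LEF letters CTTTGAA or CTTTGAT or CTTTGTA or CTTTGTT. A match was held by 2 of the 8, against 14.8% of 32851 promoters of the same length. Sp5 had 2 matches, at 222 and 104 bases before its start, and 1 of the 2 Tnfrsf19 promoters had 1, at 202 bases. These windows are shown with the matches in capitals, beside that of Axin2, the member with the highest untreated level, which held none. Sp5 lies at chr2:70474673-70474922 (+), Tnfrsf19 at chr14:61037988-61038237 (-) and Axin2 at chr11:108920099-108920348 (+).
Sp5: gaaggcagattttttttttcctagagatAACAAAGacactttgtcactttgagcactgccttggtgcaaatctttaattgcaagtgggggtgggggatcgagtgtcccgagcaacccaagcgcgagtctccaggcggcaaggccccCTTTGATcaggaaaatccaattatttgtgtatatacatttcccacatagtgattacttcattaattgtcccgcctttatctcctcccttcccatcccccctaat
Tnfrsf19: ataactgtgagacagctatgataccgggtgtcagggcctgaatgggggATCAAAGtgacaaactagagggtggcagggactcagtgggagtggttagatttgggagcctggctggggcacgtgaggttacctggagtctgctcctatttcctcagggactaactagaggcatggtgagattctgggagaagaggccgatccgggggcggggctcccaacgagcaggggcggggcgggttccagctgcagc
Axin2: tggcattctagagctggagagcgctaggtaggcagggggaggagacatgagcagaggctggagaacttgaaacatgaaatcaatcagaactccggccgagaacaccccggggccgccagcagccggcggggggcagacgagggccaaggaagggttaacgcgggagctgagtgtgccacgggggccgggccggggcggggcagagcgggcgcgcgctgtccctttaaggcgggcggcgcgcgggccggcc
A match is only a run of letters, and binding was not measured. The promoters of Ascl2, Nkd1 and Rnf43 held no match in this window.

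Against untreated organoids, Lgr5, Axin2 and Nkd1 had the largest fold decreases among the members in each 24 h group. PAM day 2 had the lowest group mean of all 10 genes. A gene was called when limma gave an adjusted p under 0.01 and its fold change was 1 or more on the log2 scale in either direction. Notum was under the filter on low values in every comparison, so 9 members were tested against untreated. Nkd1 passed that filter only through the untreated libraries in direct 24 h, PAM day 1, indirect day 2 and PAM day 2. A fall was the only change that could be called for it there, and the counts of lower members below include it.

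After direct CAP for 30 min limma called no member, as against 0% of all genes called lower, and no member had an unadjusted p under 0.05 with a lower mean (11% of all genes did). The log2 fold changes there ran from -0.85 (Nkd1) to 0.15 (Rnf43). After direct CAP for 24 h (0.917% of all genes called lower) and indirect day 1 (0.477%) none was called either, although 8 and 5 members had an unadjusted p under 0.05 and a lower mean (19.8% and 18.9% of all genes did). PAM day 1 gave 4 lower calls (5.4% of all genes), Lgr5, Axin2, Nkd1 and Ascl2. The same 4 genes were called lower in indirect day 2 (5.71%). In PAM day 2, 7 members were called lower (10.5%), and each of the 9 lay under every untreated library in all 3 treated libraries (32.6% of all genes did). Over the 9 libraries treated for 24 h from day 1, 3 were called lower (2.07%), Lgr5, Axin2 and Nkd1. Those 9 are the same 3 lines in direct 24 h, indirect day 1 and PAM day 1, and not 9 independent replicates. No member was called higher in these comparisons, in which 0.00564% (direct 30 min), 1.25% (direct 24 h), 0.831% (indirect day 1), 4.83% (PAM day 1), 6.2% (indirect day 2), 6.82% (PAM day 2) and 4.27% (the 9 libraries) of all genes were. They share the 4 untreated libraries and are not independent of each other.

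**Figure D2:**
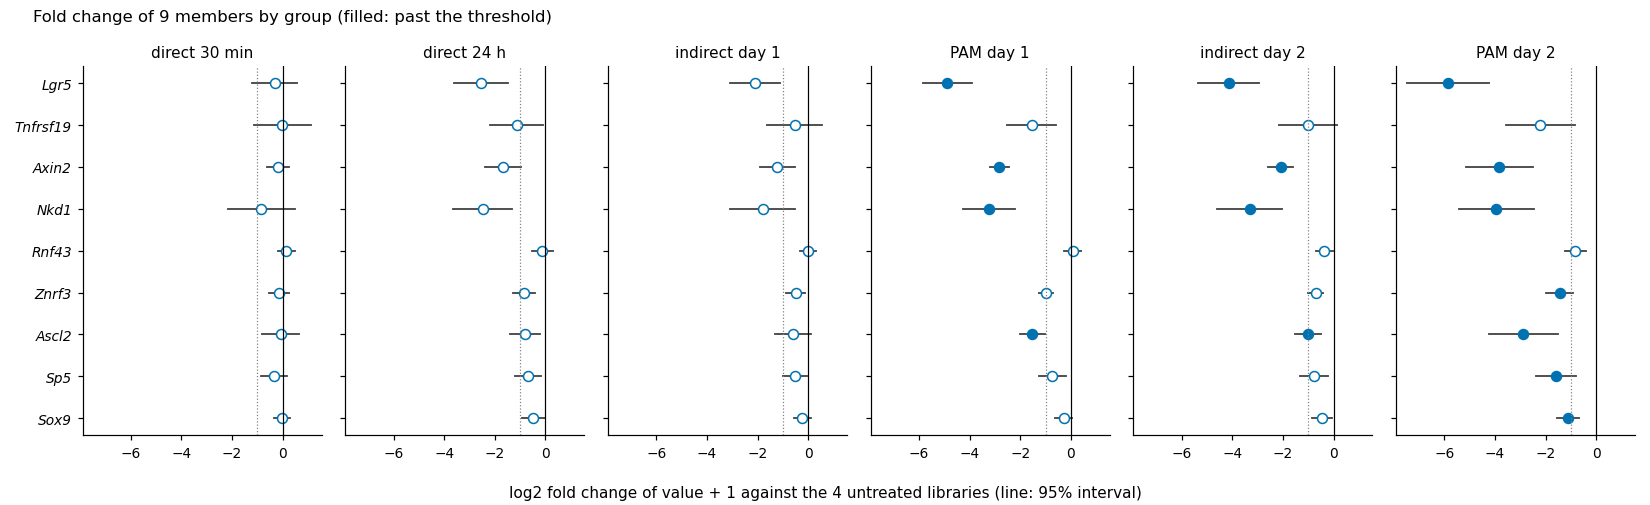
Log2 fold change of value + 1 against the 4 untreated libraries for 9 members in the 6 treated groups of 3, with the 95% interval as a line and members past the threshold filled. The dotted line marks a log2 fold change of -1. Filled points number 0, 0, 0, 4, 4 and 7 from left to right, and Rnf43 stays nearest to 0 in the 24 h groups.

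The members' median log2 fold change was -0.97 over the 9 libraries treated from day 1, beside -0.05 for all genes, and -2.22 in PAM day 2, beside -0.12. Without the untreated libraries of lines 1 and 2, which leaves 2, no member was called in PAM day 2 or over the 9 libraries, 2 were called in indirect day 2 (Axin2 and Lgr5) and 3 in PAM day 1 (Axin2, Lgr5 and Ascl2). Nkd1 was then under the filter in direct 24 h, PAM day 1, indirect day 2 and PAM day 2. The log2 fold change of Lgr5 in PAM day 2 was -5.70 in place of -5.87, while its limma adjusted p was 0.0147 in place of 0.000587. The share of all genes called in these fits was not recorded, so the lost calls cannot be read as particular to the members. At an adjusted p under 0.05 whatever the fold, and with all 4 untreated libraries, lower members numbered 4 in direct 24 h (10.2% of all genes), 2 in indirect day 1 (10.4%), 7 in PAM day 1 (26.6%) and 7 over the 9 libraries (18.7%). With organoid line as a block, the lower calls numbered 5 in PAM day 1 (Znrf3 was added, 3.9% of all genes called lower), 3 in indirect day 2 (4.99%), 6 in PAM day 2 (8.44%) and 2 over the 9 libraries (1.9%). The block takes the labels of untreated lines 1 and 2 as given, and neither followed its own line well.

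**Figure D3:**
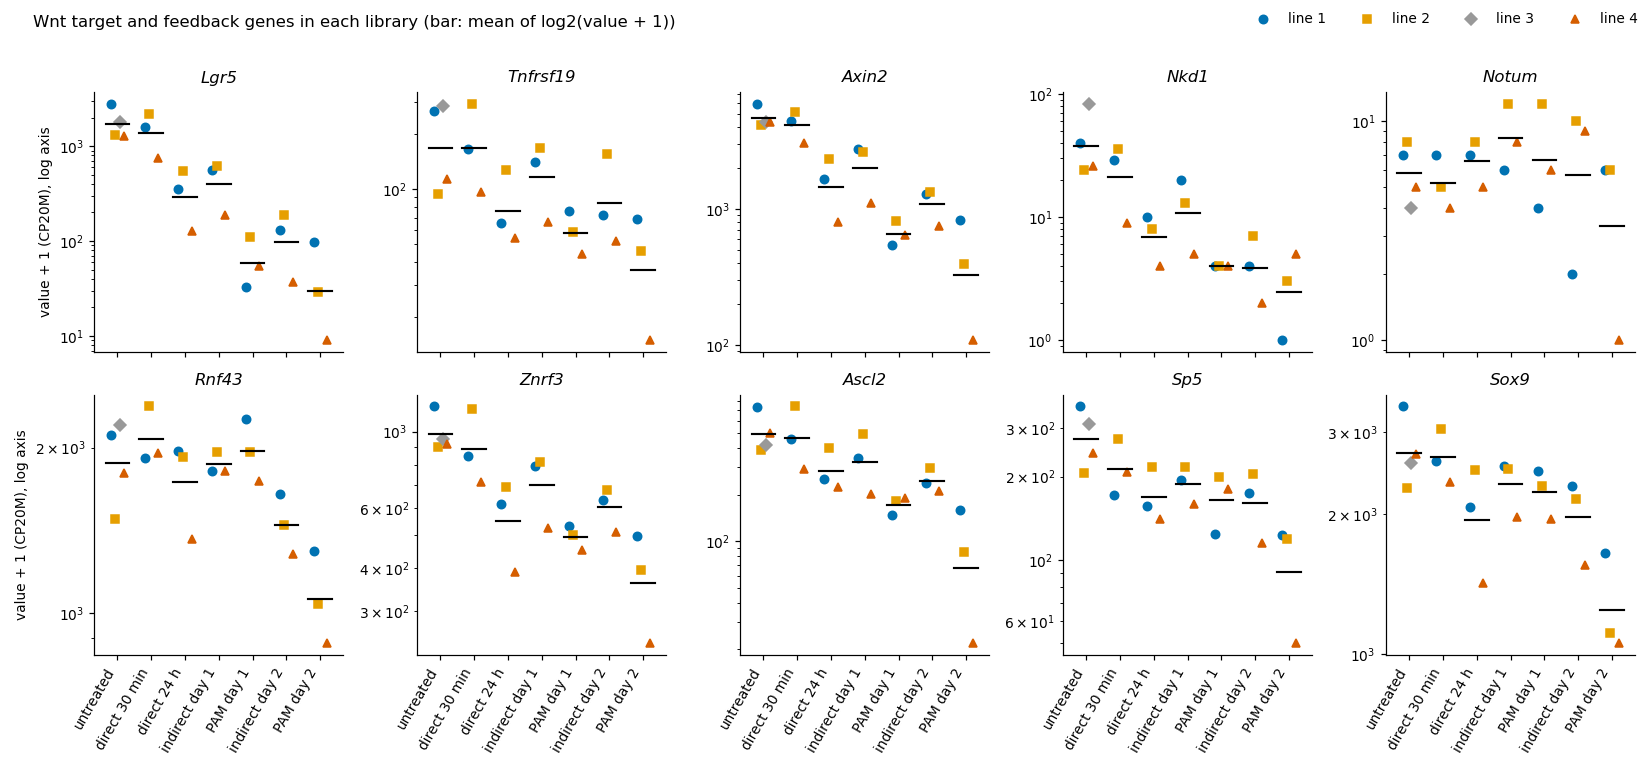
Value + 1 (CP20M, log axis) of each member in the 22 libraries, with line 1 as circles, line 2 as squares, line 3 as diamonds, line 4 as triangles and the mean of log2(value + 1) of each group as a bar. Lgr5 runs from 1281 or more in untreated organoids to 96 or less in PAM day 2, while Rnf43 stays between 881 and 2375.

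Lgr5, the R-spondin receptor that marks crypt base columnar stem cells, lies on chromosome 10 (GRCm38, 115450311 to 115587780, minus strand). Its values were 2822, 1305, 1816 and 1281 in untreated lines 1 to 4. For lines 1, 2 and 4 they were 1591, 2171 and 747 after direct CAP for 30 min, and 354, 548 and 128 after 24 h. All values from 24 h on lay under every untreated library, whereas the 30 min values overlapped the untreated range. In indirect day 1 Lgr5 stood at 566, 620 and 186, and in PAM day 1 at 32, 110 and 53. In indirect day 2 it stood at 131, 188 and 36, and in PAM day 2 at 96, 28 and 8. The PAM day 1 and indirect day 1 values do not overlap.

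Lgr5 fell by 4.88 on the log2 scale in PAM day 1 (SE 0.42, limma adjusted p = 0.000161), which is 29.4-fold. It fell by 4.14 in indirect day 2 (SE 0.53, adjusted p = 0.00055) and fell by 5.87 in PAM day 2 (SE 0.70, adjusted p = 0.000587). The last is 58.3-fold and the eighth largest decrease among 17694 genes. It became -6.73 without PAM day 2 line 1 and -5.01 without line 4, and the change in indirect day 2 became -3.44 without line 4 of that group, all past the threshold. The changes of -2.55 in direct 24 h (adjusted p = 0.0109) and -2.08 in indirect day 1 (adjusted p = 0.0167) missed the threshold. Over the 9 libraries from day 1 the mean was 16% of the untreated mean, with a log2 fold change of -3.17 (SE 0.70, adjusted p = 0.00416). That call was lost when any 1 untreated library was left out (adjusted p up to 0.0191) and with line as a block (adjusted p = 0.0103). In these bulk libraries fewer cells of a type and less RNA per cell cannot be told apart.

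Tnfrsf19, a TNF receptor family member also known as Troy and a Wnt target in stem cells, was the more variable receptor. It ran from 93 to 282 in untreated organoids, with lines 1 and 3 at 265 and 282 and lines 2 and 4 at 93 and 113. It stood at 75, 57 and 43 in PAM day 1 and at 68, 45 and 14 in PAM day 2, under all untreated values in both. Its log2 fold changes of -1.54 (adjusted p = 0.0192) and -2.22 (adjusted p = 0.0163) missed the threshold. The untreated spread within the gene was over 3-fold, wider than that of Axin2 or Sox9.

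Axin2, a scaffold of the β-catenin destruction complex and a widely used Wnt readout, lies on chromosome 11 (108920349 to 108950783, plus strand). Untreated lines 1 to 4 gave 5951, 4158, 4349 and 4316. Direct CAP gave 4430, 5190 and 3061 after 30 min and 1644, 2343 and 798 after 24 h. The 24 h values lay under the untreated range, and the 30 min values overlapped it. Axin2 stood at 2773, 2598 and 1096 in indirect day 1, 536, 811 and 642 in PAM day 1, 1291, 1317 and 752 in indirect day 2, and 822, 389 and 107 in PAM day 2. Axin2 fell by 2.83 in PAM day 1 (SE 0.17, adjusted p = 4.27e-05), fell by 2.10 in indirect day 2 (SE 0.21, adjusted p = 0.00019) and fell by 3.83 in PAM day 2 (SE 0.58, adjusted p = 0.00141). The last became -4.50 without PAM day 2 line 1 and -3.03 without line 4. Over the 9 libraries from day 1 it fell by 1.91 (SE 0.41, adjusted p = 0.00356), and without any 1 untreated library this missed the threshold (adjusted p up to 0.0163). The antisense gene Gm11670 overlaps Axin2 with an untreated mean of 573, and since the strand setting of the counting is not given in the sources used here, their reads may be shared.

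Nkd1, which binds Dishevelled and dampens the signal, was low throughout. Untreated lines gave 39, 23, 83 and 25, whereas PAM day 1 gave 3 in each library and PAM day 2 gave 0, 2 and 4. Direct CAP for 24 h gave 9, 7 and 3, indirect day 1 gave 19, 12 and 4, and indirect day 2 gave 3, 6 and 1. Every value from 24 h on lay under the untreated range. Nkd1 fell by 3.25 in PAM day 1 (adjusted p = 0.000935), fell by 3.31 in indirect day 2 (adjusted p = 0.0021) and fell by 3.95 in PAM day 2 (adjusted p = 0.00193). In these groups it passed the filter on low values only through the untreated libraries, so a fall was the only change that could be called. Over the 9 libraries from day 1 it also needed the untreated libraries to pass. At so few reads these fold changes depend on the pseudocount: with 10 in place of 1 the last became -2.01. It became -3.30 without PAM day 2 line 1.

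Notum, a secreted enzyme that inactivates Wnt ligands, was at 11 or less in all 22 libraries. Untreated values ran from 3 to 7 and those of the 9 libraries treated from day 1 from 3 to 11. The difference of 0.30 on the log2 scale was within the spread (exact permutation test of 9 against 4, two-sided, p = 0.378). This test takes the 9 libraries as independent, although they hold 3 lines. At this depth a change of this gene was not detectable.

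Rnf43 and Znrf3 are paralogous E3 ligases that remove Frizzled receptors from the surface and that R-spondin counteracts through the LGR receptors. Rnf43 stood at 2104, 1479, 2195 and 1800 in untreated organoids and at 2255, 1961 and 1739 in PAM day 1, where Lgr5 was at its second lowest group mean. Over the 9 libraries from day 1 its log2 fold change was -0.02 (95% interval -0.28 to 0.25, adjusted p = 0.936). In PAM day 2 it stood at 1296, 1037 and 881, under every untreated library, with a change of -0.82 (SE 0.18, adjusted p = 0.00633) that did not reach the fold threshold. Znrf3 stood at 1183, 899, 950 and 919 in untreated organoids and at 531, 500 and 450 in PAM day 1. All 9 libraries from day 1 lay under the untreated range, at 390 to 812, with a change of -0.78 (SE 0.18, adjusted p = 0.00477) that was short of the fold threshold. In PAM day 2 it stood at 496, 393 and 241 and fell by 1.44 (SE 0.23, adjusted p = 0.00192).

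Among the transcription factors, Ascl2, the factor that maintains crypt stem cell identity, had the largest fold changes in each 24 h group. It stood at 729, 386, 416 and 497 in untreated organoids, 147, 181 and 188 in PAM day 1, 237, 297 and 209 in indirect day 2, and 158, 84 and 21 in PAM day 2. These groups did not overlap the untreated libraries. It fell by 1.52 in PAM day 1 (SE 0.22, adjusted p = 0.00114) and fell by 2.88 in PAM day 2 (SE 0.60, adjusted p = 0.0054). The call in indirect day 2 (adjusted p = 0.0078) stood at the edge of the threshold and was lost with quantile normalization, another pseudocount, no filter, a single fit of all groups, line as a block, or without any single library other than untreated line 2 and indirect day 2 line 2. The PAM day 2 call was lost without any single untreated library or PAM day 2 line 2 (adjusted p up to 0.0177), its change became -3.51 without PAM day 2 line 1 and -2.08 without line 4, and the PAM day 1 call in the fit of all groups.

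Sp5, a zinc finger factor induced directly by β-catenin, stood at 358, 205, 310 and 242 in untreated organoids and at 122, 118 and 49 in PAM day 2, where it fell by 1.60 (SE 0.35, adjusted p = 0.00671). That call was lost with quantile normalization, with line as a block (adjusted p = 0.0129) and without any single untreated library or PAM day 2 line 2 (adjusted p up to 0.021). In the other 24 h groups Sp5 ran from 114 to 216, partly within the untreated range. Sox9, a progenitor and Paneth cell factor, stood at 3401, 2278, 2574 and 2685 in untreated organoids. It was at 1652, 1110 and 1056 in PAM day 2, where it fell by 1.12 (SE 0.19, adjusted p = 0.00229), and without PAM day 2 line 4 the change stood just under the fold threshold (adjusted p = 0.0053). Over the 9 libraries from day 1 its change of -0.33 (95% interval -0.64 to -0.02, adjusted p = 0.0958) missed the threshold. Quantile normalization moved the median of all genes in PAM day 2 by 0.11, and the members' changes there were then -0.71 (Rnf43) to -5.88 (Lgr5).

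The members thus differed among themselves in the size of their change, which was followed within each library as the log2 ratio of a member to a related gene. These pairs were chosen after the values were seen, and they are described with no test. Lgr5 over Lgr4, its close relative and fellow R-spondin receptor, ran from -2.12 to -1.05 in untreated organoids and from -7.58 to -3.07 in the 9 libraries from day 1. Axin2 over Axin1, the constitutively expressed scaffold, ran from 1.05 to 1.60 and from -1.75 to 0.58. Neither pair overlapped between groups. Znrf3 over Rnf43 ran from -1.21 to -0.72 in untreated organoids and from -2.08 to -1.19 after treatment from day 1, where a single library, of indirect day 1, entered the untreated range. Lgr5 over Sox9 ran from -1.07 to -0.27 and from -6.23 to -2.01.

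**Figure D4:**
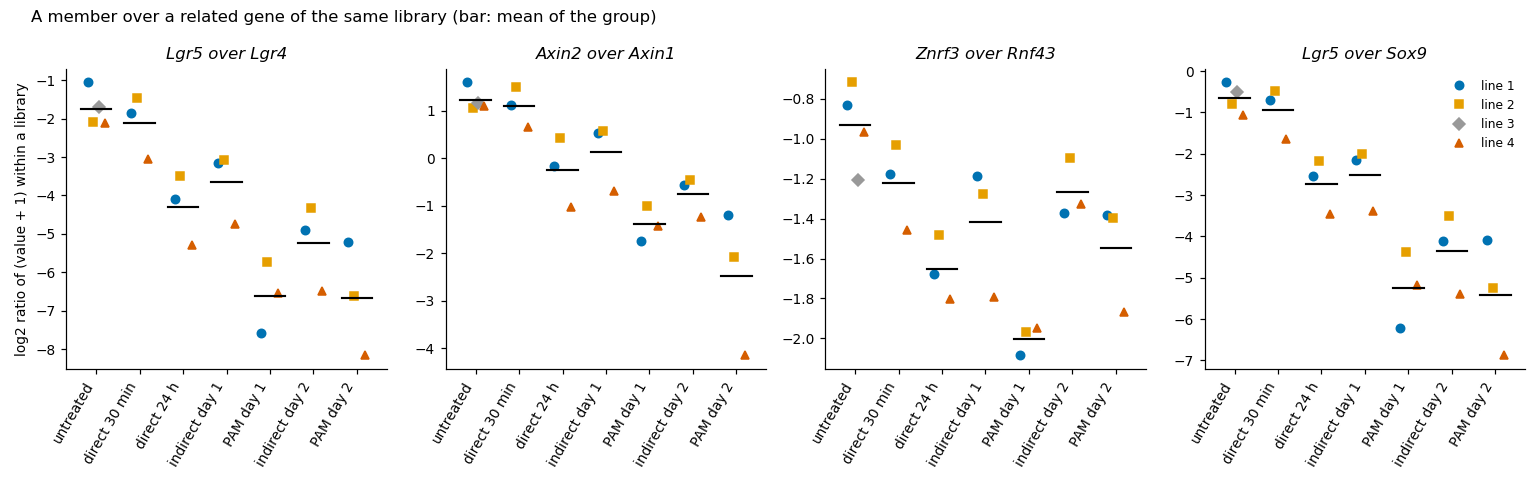
Log2 ratio of value + 1 of a member over a related gene within each of the 22 libraries, with lines as symbols and the group mean as a bar. Lgr5 over Lgr4 has group means of -1.74 in untreated organoids, -6.62 in PAM day 1 and -6.66 in PAM day 2, and the lowest mean of Znrf3 over Rnf43 is in PAM day 1.

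Comparisons among the treated groups asked whether the length, source and day of exposure mattered, and 8 members were tested in each of 7. Direct 24 h and direct 30 min may also differ in time of collection after treatment. Without a block limma called no member and at most 2 of all genes. Members lower at an unadjusted p under 0.05 numbered 4 for direct 24 h against 30 min (15% of all genes were), 0 for indirect day 1 against direct 24 h (1.52%) and 3 for PAM day 1 against direct 24 h (7.01%). They numbered 5 for PAM day 1 against indirect day 1 (16.8%), 5 for PAM day 2 against indirect day 2 (8.55%), 2 for indirect day 2 against indirect day 1 (12.6%) and 2 for PAM day 2 against PAM day 1 (14.1%). Since the 3 lines were the same in every treated group, and all 45 pairs of treated libraries from 1 line deviated together (r of 0.184 to 0.868), line was also fitted as a block. After direct CAP for 24 h against 30 min, the log2 fold change was then -2.23 for Lgr5 (adjusted p = 0.000964) and -1.50 for Axin2 (adjusted p = 0.00231), where 0.583% of all genes were called lower. Between PAM day 1 and direct 24 h that of Lgr5 was -2.33 (adjusted p = 0.00694, 0.281% of all genes). Between indirect day 2 and indirect day 1 it was -2.05 (adjusted p = 2.67e-05, 2.31% of all genes), and Lgr5 was lower in indirect day 2 in all 3 lines.

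No member was called between indirect day 1 and direct 24 h with or without the block, and the changes ran from 0.11 (Rnf43, 95% interval -0.25 to 0.47) to 0.60 (Tnfrsf19, -0.42 to 1.63). Between PAM day 1 and indirect day 1, Lgr5 differed by -2.79 (95% interval -4.17 to -1.42) and Axin2 by -1.61 (-2.45 to -0.76), with adjusted p of 0.165 for both, or 0.0216 and 0.022 with the block. Between PAM day 2 and indirect day 2 the changes were all negative and ran to -1.88 for Ascl2 (95% interval -3.48 to -0.29, adjusted p = 0.523). Between PAM day 2 and PAM day 1, Rnf43 and Sox9 had the smallest unadjusted p, with changes of -0.90 (adjusted p = 0.0584) and -0.84 (adjusted p = 0.0696). These intervals are too wide to show that the groups were alike.

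The lines differed within the treated groups. Over 9 members, Notum left out, and 6 treated groups, line 4 alone was the lowest of the 3 in 45 of 54 cases, line 1 in 8 and line 2 in 0. These cases are not independent, because the members are correlated and the same 3 lines recur in each group. The share of all genes with line 4 lowest is not given here, so this cannot be read as particular to the members. By group, line 4 was lowest in 7 to 9 of the 9 members, except in PAM day 1 with 4. The order of lines 1 and 2 varied between groups. Line 2 lay over line 1 in 9 of 9 members in direct 30 min, 7 in direct 24 h, 6 in indirect day 1, 7 in indirect day 2 and 4 in PAM day 1, where line 1 lay over line 2 in 4. Line 1 lay over line 2 in 8 members in PAM day 2 and in 9 in untreated organoids. These are the lines whose untreated labels were uncertain.

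The members moved together across libraries to unequal degrees. Over the 22 libraries, which share their lines and 7 groups, the 36 pairs among the 9 members other than Notum had a Pearson r of 0.563 to 0.980 on the log2 scale, with a median of 0.856. Lgr5 and Axin2 had the highest (0.980). With group means removed the median was 0.776, and Axin2 with Lgr5 (0.939) and with Znrf3 (0.923) stayed among the highest, while Nkd1 with Ascl2 had the lowest (-0.01). The 9 pairs with Notum had a median r of 0.363. These values are a description of these libraries.

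The genes most like the mean of the 10 members over the 22 libraries, among 13188 with a mean value of at least 50, were Rcbtb1 (r = 0.986), Lfng (0.983), Ifitm2 (0.983), Gm11670 (0.983) and Gm45717 (0.981). Gm11670 overlaps Axin2 and Gm45717 overlaps Ifitm2, so they may share reads. Lfng, a glycosyltransferase that modifies Notch receptors, went from 321 ± 58.6 (SD, n = 4) in untreated organoids to 55.3 ± 13.3 (n = 3) in PAM day 1 and 27.3 ± 15.3 in PAM day 2. Rcbtb1 spanned less, from 3208 to 1569 in PAM day 2. The stem cell gene Smoc2 ranked at 107 (r = 0.949), the proliferation gene Mki67 at 912 and the stem cell gene Olfm4 at 964.

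Further genes of the pathway were described by list, with no test between lists. Of 23 Wnt ligand, secretion and receptor genes, 20 were tested over the 9 libraries from day 1. Of these, 2 were called lower (2.07% of all genes) and 2 higher (4.27%), with changes of -2.38 to 1.79 and a median of -0.07. An unadjusted p under 0.05 was found for 10 of the 20, beside 44.1% of all genes. Fzd2, a Wnt receptor, fell by 2.28 (adjusted p = 0.00605) and its relative Fzd9 fell by 1.08 (adjusted p = 0.00421). The ligand Wnt6 rose by 1.79 from an untreated mean of 6.25 (adjusted p = 0.000507) and Porcn, the enzyme that acylates Wnt ligands, by 1.12 (adjusted p = 0.00289). Wnt6 passed the filter on low values only through the treated libraries, so a rise was the only change that could be called for it. In PAM day 2, 6 of 18 tested were called lower (10.5% of all genes) and 0 higher (6.82%), with a median of -0.95, and 14 had an unadjusted p under 0.05 (55.4% of all genes). Lgr4 had a change of -0.05 (adjusted p = 0.654) over the 9 libraries and of -0.94 (adjusted p = 0.000779) in PAM day 2, just short of the fold threshold.

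Signal transduction genes had changes in both directions. Of 28 such genes 25 were tested over the 9 libraries from day 1 and limma called none (6.34% of all genes), with 9 at an unadjusted p under 0.05 (44.1% of all genes) and a median change of -0.01. In PAM day 2, 2 were called lower and 3 higher (10.5% and 6.82% of all genes). There Amer1, a scaffold of the destruction complex, fell by 2.33 (adjusted p = 0.000293) and Cby1, which binds β-catenin, fell by 1.31 (adjusted p = 0.00136). Apc2 rose by 2.55 from an untreated mean of 21 (adjusted p = 0.000653) and the co-repressor Tle2 rose by 1.22 from 32.2 (adjusted p = 0.00318). Ctnnb1, which encodes β-catenin, had changes of 0.33 (adjusted p = 0.0145) over the 9 libraries and 0.55 (adjusted p = 0.0136) in PAM day 2, and the TCF factor Tcf7l2 of 0.20 (adjusted p = 0.254) and 0.19 (adjusted p = 0.205).

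Other genes known as Wnt targets did not share a direction. Of 13, 12 were tested over the 9 libraries from day 1, with 1 called lower (2.07% of all genes) and 1 called higher (4.27%). The median was -0.13, and 9 had an unadjusted p under 0.05 (44.1% of all genes). Rgmb, a BMP co-receptor, fell by 1.60 (adjusted p = 0.000716), whereas the cell cycle gene Ccnd1 rose by 1.04 (SE 0.18, adjusted p = 0.00107), from 3778 to 4680 in untreated organoids to 6333 to 14236. Myc had a change of 0.29 (adjusted p = 0.0614) and Cd44 of 0.14 (adjusted p = 0.199). In PAM day 2, 4 of 12 were called lower (10.5% of all genes) and 1 higher (6.82%), with a median of -0.78. The homeobox gene Prox1 fell by 2.62 (adjusted p = 0.00316) and Nkd2, the paralog of Nkd1, rose by 2.21, from 2 to 5 in untreated organoids to 17 to 23 (adjusted p = 0.00167). Nkd2 passed the filter on low values only through the PAM day 2 libraries, so a rise was the only change that could be called. Ccnd1 had a change of -0.36 there (adjusted p = 0.502), Myc of -0.69 (adjusted p = 0.041) and Cd44 of -0.76 (adjusted p = 0.00136, short of the fold threshold). Of 12 secreted antagonists and their receptors only 2 passed the filter in these comparisons, Kremen1 and Kremen2, and limma called neither. Over the 9 libraries 1 had an unadjusted p under 0.05 (44.1% of all genes).

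**Figure D5:**
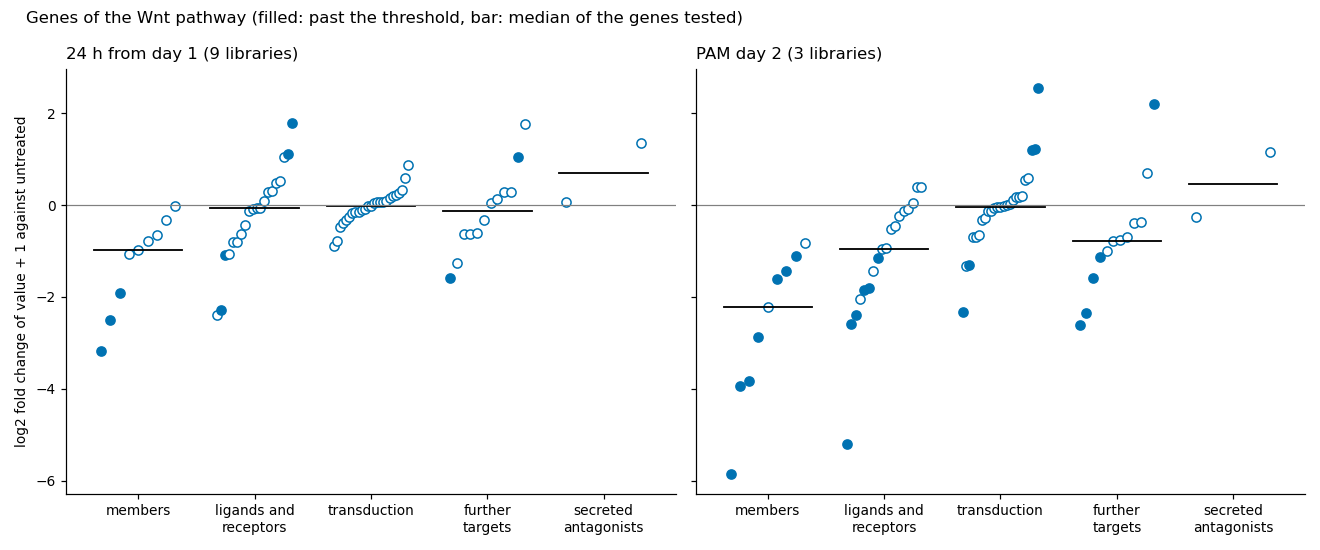
Log2 fold change of value + 1 against untreated organoids for the tested members and for 4 further lists of Wnt pathway genes, over the 9 libraries treated for 24 h from day 1 (left) and the 3 of PAM day 2 (right), 1 point per gene, filled where past the threshold, with the median as a bar. The members' medians are -0.97 and -2.22 and those of the transduction genes -0.01 and -0.03.

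These pathway calls rest on the same untreated libraries. Without those of lines 1 and 2, Wnt6 stayed called over the 9 libraries (adjusted p = 0.00883), which alone carried it past the filter on low values. Fzd2, Fzd9, Porcn, Rgmb and Ccnd1 then did not pass (adjusted p of 0.021 to 0.0831). With line as a block Fzd2 did not pass (adjusted p = 0.0155), nor did Tle2 in PAM day 2 (adjusted p = 0.0203).

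Markers of stem and dividing cells had lower sums in every 24 h group than in any untreated library. The summed values of the stem cell genes Olfm4 and Smoc2 ran from 26708 to 31136 in untreated organoids, 4165 to 7569 in direct 24 h, 4454 to 11358 in indirect day 1, 591 to 1757 in PAM day 1, 1706 to 2294 in indirect day 2 and 571 to 1671 in PAM day 2. Both were called lower over the 9 libraries from day 1 (2.07% of all genes). In direct 30 min they differed from the members, with sums of 16174 to 23913 under the untreated range. Both were lower there at an unadjusted p under 0.05 (11% of all genes were), without passing the threshold. The sums of 7 proliferation genes ran from 23938 to 30907 in untreated organoids, 20815 to 28684 in direct 30 min, 16986 to 21100 in direct 24 h, 16900 to 23033 in indirect day 1, 12493 to 18549 in PAM day 1, 9188 to 11364 in indirect day 2 and 4687 to 9105 in PAM day 2. None of the 7 was called over the 9 libraries (2.07% of all genes were called lower), where limma gave 7 at an unadjusted p under 0.05 (44.1%). All 7 were called lower in PAM day 2 (10.5% of all genes).

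Paneth cells express Sox9 and supply Wnt3, and their 5 markers summed to 21624 to 30627 in untreated organoids, 3742 to 15923 in PAM day 1 and 3745 to 16885 in PAM day 2. Of these 5, 2 were called lower over the 9 libraries (Defa17 and Defa24, 2.07% of all genes) and 0 in PAM day 2 (10.5%). There limma gave 3 at an unadjusted p under 0.05 (55.4% of all genes). The 5 goblet cell markers summed to 73232 to 129624 in untreated organoids, 80270 to 179321 in PAM day 1 and 17395 to 45957 in PAM day 2. Of these, 1 was called higher over the 9 libraries (Clca1, 4.27% of all genes). In PAM day 2, 2 were called lower (10.5% of all genes), the mucus gene Fcgbp and the goblet cell factor Spdef. The 4 enteroendocrine markers went in both directions, with sums of 1735 to 2856 in untreated organoids and 2736 to 4641 in PAM day 2. Over the 9 libraries Neurog3 and Neurod1 had means of 31.3% and 44% of untreated, and Chga and Chgb of 253% and 200%. At an unadjusted p under 0.05 (44.1% of all genes), 2 were lower and 2 higher there. The progenitor factor Neurog3 was called lower in direct 24 h, PAM day 1, indirect day 2 and PAM day 2. The 3 tuft cell markers summed to 84 to 133 in untreated organoids and 38 to 68 in PAM day 2, with Pou2f3 called lower there.

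The 5 enterocyte markers summed to 82850 to 101575 in untreated organoids, 63509 to 126229 in PAM day 1 and 130879 to 167262 in PAM day 2. They did not share a direction in PAM day 2, where changes ran from -1.77 to 1.42 with a median of -0.02. Alpi was the one called there, higher (6.82% of all genes). None was called over the 9 libraries (6.34% of all genes), where 2 had an unadjusted p under 0.05 (44.1%). Cd68, a macrophage marker, had a mean of 21.5 in untreated organoids and of 41 to 66 in the 24 h groups, and it rose by 1.35 over the 9 libraries (adjusted p = 0.000427). The other immune markers Ptprc, Cd3e and Adgre1 were near the floor. Their means were 3.56, 2.33 and 0.444 over the 9 libraries and 4.75, 1 and 0.5 in untreated organoids. Whether macrophages were present was not tested. The part of the cell type make-up in the members' values was not tested.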

How the data were processed

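Gene-level values of 22 libraries were used as the authors deposited them. Per the labels and the study's methods, paired-end reads were trimmed with Trimmomatic 0.36, aligned with STAR 2.5.3a to GRCm38 and counted with HTSeq 0.9.1. The deposited unit, which the study calls CP20M and describes as per kilobase, is treated here as a score: read counts that the authors scaled to 20 M per library and rounded up. The values summed to about 20 M in every library, which a plain scaling of counts gives. Values divided by length and then rescaled could sum to this too, so the sums alone do not settle the unit. The authors' edgeR tests were not rerun, because raw counts were not used here.

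Tests ran in limma 3.58.1 (trended, R 4.3.3) on log2(value + 1), with Benjamini-Hochberg adjustment over every gene that reached 10 in 3 or more of the fitted libraries. Each fit held only the groups compared. Fold changes are on the log2(value + 1) scale and understate those of low genes. Figures and permutation tests were made with Python 3.11.15, scipy 1.17.1 and matplotlib 3.10.9. On simulated data the fit found 200 of 200 genes changed 4-fold in each of 3 designs, with 1, 0 and 0 false calls. The changed genes had means of 200 or more, and the simulated libraries had a fixed spread and no line effect. It is a check of the code only and does not show how many real changes the tests find or how many calls are false. Values near 10 rest on some 10 reads each, where counting error is large. Among 24 replicate pairs none held the same library.

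Libraries were grouped by the labels. Replicates were organoid lines, each from 1 mouse, so p-values of a single group against untreated measure the spread between lines. The 9 libraries treated for 24 h from day 1 hold 3 lines in each of 3 groups. Their unblocked p-values, and the permutation test of Notum, mix the spread between groups with that between lines and count each line more than once. Over the genes that reached a minimum value in every library, deviations from the group means were correlated between groups. Libraries of 1 line had a median correlation of 0.529, and those of different lines had -0.263. Since the deviations cancel within a group, the negative value follows in part from the first. The labels thus pair the samples by line, which was fitted as a block as an alternative. Untreated lines 1 and 2 followed their own line at medians of 0.0593 and 0.0901 only, so blocked counts against untreated rest on labels in doubt. Further alternatives were a single fit of all 7 groups, a looser call at an adjusted p under 0.05 without any fold limit, dropping the filter on low values, raising the pseudocount to 10, quantile normalization, and leaving out each library. Leaving out the untreated libraries of lines 1 and 2 together was chosen after seeing the data.

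Positions come from GENCODE vM21 (GRCm38), which held 52489 of the 52636 identifiers. The 10 members and the pathway and marker lists were chosen with earlier results of these data known, and Lgr5 and Axin2 are among the genes the study itself describes. All members are named. Of each other pathway list, at most 4 genes with the largest change past the threshold are named, first from the 9 libraries treated for 24 h from day 1 and then from PAM day 2, and Myc, Ccnd1, Cd44, Lgr4, Ctnnb1 and Tcf7l2 whatever their values. Markers and Kremen1, Kremen2, Axin1, Defa17, Defa24, Clca1, Fcgbp, Spdef, Neurog3, Neurod1, Chga, Chgb, Pou2f3, Alpi, Cd68 and Wnt3 were named after their values were seen.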

Additional observations from a re-analysis of the deposited data

Results flagged for a closer look

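Axin2 in the untreated group had its highest library, line 1 at 5951, far from the other 3, which lay between 4158 and 4349. Chance sets apart about 1 in 20 such groups, and 10 genes were examined.

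Lgr5 and Axin2 differed between treated groups once organoid line was fitted as a block. The log2 fold change of direct CAP for 24 h against 30 min was -2.23 for Lgr5 and -1.50 for Axin2. That of Lgr5 was -2.33 for PAM day 1 against direct 24 h and -2.05 for indirect day 2 against indirect day 1. None of these passed without the block.

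Rnf43 lay over the untreated mean of 1894.5 in all 3 libraries of direct 30 min (mean 2081) and under it in all 3 of indirect day 2 and of PAM day 2. This difference in direction was not tested.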

How the results depend on the processing

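Over 14 counts of members past the threshold and 188 alternatives, 172 counts were equal to the main count or within 1.5 times of it. Most of the 14 main counts were 0, and a 0 that stayed at 0 is among the 172. That number therefore does not measure how firm the calls are. With an adjusted p under 0.05 and no minimum fold change the counts became 4 in direct 24 h, 2 in indirect day 1, 7 in PAM day 1 and 7 over the 9 libraries treated for 24 h from day 1, all lower (10.2%, 10.4%, 26.6% and 18.7% of all genes). Quantile normalization gave 1 in direct 24 h (Nkd1). Without the untreated libraries of lines 1 and 2, chosen after seeing the data, the counts were 3 in PAM day 1, 2 in indirect day 2, 0 in PAM day 2 and 0 over the 9 libraries, with 2 untreated libraries left. The share of all genes called was not recorded for these fits, for quantile normalization or for the fits below without single libraries. Their counts cannot be read as particular to the members. Leaving out single libraries gave 0 to 2 in direct 24 h (2 without line 2 of that group, Lgr5 and Axin2), 4 to 5 in PAM day 1, 3 to 4 in indirect day 2, 5 to 7 in PAM day 2, 1 to 4 over the 9 libraries (1 without any single untreated library, 4 without indirect day 1 line 2) and 0 in the other 9 comparisons.

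With the replicate block by organoid line, the counts became 2 for direct 24 h against 30 min, 1 for PAM day 1 against direct 24 h and 1 for indirect day 2 against indirect day 1, and the pairing moved those against untreated to 5 in PAM day 1, 3 in indirect day 2, 6 in PAM day 2 and 2 over the 9 libraries. It changed no other count. The cause of these changes was not tested. Depth limits Nkd1 and Notum, whose values stood near the filter or under it, and 3 libraries a group limit every comparison.

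Of 1485 single-member fold changes under the alternatives, 41 took the other sign, in 20 of 119 results. None of these 20 was called, and the largest stood at 0.46. In direct 30 min, Tnfrsf19 became 0.24 with the replicate block, and Ascl2 became 0.024 and Sox9 0.0083 without the untreated libraries of lines 1 and 2. Rnf43 became 0.020 with quantile normalization and 0.070 with the block in indirect day 1, 0.018 and 0.061 over the 9 libraries, and -0.010 in PAM day 1 without those untreated libraries. Sp5 became 0.053 with quantile normalization in PAM day 1 against direct 24 h. Leaving out single libraries gave -0.65 to 0.12 for Lgr5, -0.42 to 0.39 for Tnfrsf19, -0.33 to 0.047 for Axin2, -0.34 to 0.017 for Znrf3, -0.43 to 0.24 for Ascl2 and -0.13 to 0.077 for Sox9 in direct 30 min, the upper end without line 4 of that group, or for Sox9 without untreated line 1. For Rnf43 it gave -0.23 to 0.056 in direct 24 h, -0.12 to 0.070 in indirect day 1, -0.037 to 0.17 in PAM day 1 and -0.13 to 0.061 over the 9 libraries. In indirect day 1 against direct 24 h it gave -0.13 to 1.02 for Lgr5, -0.063 to 0.20 for Rnf43 and -0.11 to 0.54 for Ascl2. In PAM day 1 against direct 24 h it gave -0.40 to 0.0081 for Znrf3, -0.17 to 0.17 for Sp5 and -0.026 to 0.38 for Sox9. In PAM day 1 against indirect day 1 it gave -0.013 to 0.17 for Rnf43, -0.34 to 0.0073 for Sp5 and -0.17 to 0.039 for Sox9, and in indirect day 2 against indirect day 1 it gave -0.41 to 0.0012 for Sp5.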
